A study of Mus musculus with 2 samples.

Results

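Complement is a set of soluble proteins, their regulators and their receptors, and 9 of its genes that macrophages can transcribe were followed here: C1qa, C1qb, C1qc, C3, C4b, Cfb, Cfp, C3ar1 and C5ar1. They were taken by symbol from a table of 22060 genes, by name and not by any measured value, and each symbol matched 1 Ensembl identifier. The cells were bone marrow-derived macrophages of C57BL/6 mice aged 8 weeks, grown from marrow for 7 days in M-CSF, the growth factor that turns marrow progenitors into macrophages. One library came from wild-type cells (WT) and 1 from cells whose STAT2 carries the T403A substitution, threonine 403 to alanine. Both groups were left untreated (0 h). How the T403A allele was made, whether it was homozygous and how many mice gave each library are not stated in the labels. As there was 1 library per genotype, replicate error is unknown, p-values cannot be computed, and what follows describes these 2 libraries.

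As background, complement starts by 3 routes. In the classical route C1q, built from the A, B and C chains that C1qa, C1qb and C1qc encode, binds antibody or damaged cells and leads to cleavage of C4. All routes meet at C3, whose fragments coat targets for uptake and call in leukocytes, while factor B (Cfb) and properdin (Cfp) form and hold together the alternative-route enzyme that cleaves more C3. C3ar1 and C5ar1 are G protein-coupled receptors for the small peptides released from C3 and C5. Most plasma complement is made in the liver, but macrophages are a main source of C1q. STAT2 is a subunit of the factor that carries the type I interferon signal to DNA.

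RefSeq promoter sequences (GRCm38.p6) were at hand for 6 of the genes (C1qb, C1qc, C3, Cfp, C3ar1 and C5ar1), as the 250 bases before the start annotated in RefSeq. These 5 are shown because C1qb and C1qc are neighbours whose counts were lower by similar folds, C3 and C3ar1 are the abundant central component and its receptor, and C5ar1 is the 1 gene that stayed inside the 1.5-fold bound used below. Each reads 5′ to 3′ on the minus strand, and capitals mark a motif match.
C1qb (chr4:136886201-136886450): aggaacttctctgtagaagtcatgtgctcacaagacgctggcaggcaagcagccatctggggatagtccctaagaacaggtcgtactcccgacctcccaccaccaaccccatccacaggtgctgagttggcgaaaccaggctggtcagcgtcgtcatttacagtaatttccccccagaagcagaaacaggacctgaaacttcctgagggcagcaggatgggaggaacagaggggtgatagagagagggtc
C1qc (chr4:136892915-136893164): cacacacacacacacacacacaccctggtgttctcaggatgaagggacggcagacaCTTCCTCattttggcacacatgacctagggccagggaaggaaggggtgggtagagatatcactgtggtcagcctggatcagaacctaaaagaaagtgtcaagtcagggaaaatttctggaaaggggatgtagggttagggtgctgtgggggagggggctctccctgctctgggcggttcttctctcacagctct
C3 (chr17:57228137-57228386): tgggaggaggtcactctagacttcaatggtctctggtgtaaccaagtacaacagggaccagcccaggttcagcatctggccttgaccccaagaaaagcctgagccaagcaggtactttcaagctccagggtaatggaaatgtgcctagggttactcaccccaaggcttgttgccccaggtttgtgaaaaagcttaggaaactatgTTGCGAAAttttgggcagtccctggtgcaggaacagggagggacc
C3ar1 (chr6:122856158-122856407): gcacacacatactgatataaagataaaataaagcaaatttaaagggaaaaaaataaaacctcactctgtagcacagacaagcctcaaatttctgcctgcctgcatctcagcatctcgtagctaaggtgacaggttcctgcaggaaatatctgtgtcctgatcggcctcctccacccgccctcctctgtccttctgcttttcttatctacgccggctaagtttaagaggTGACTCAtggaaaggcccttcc
C5ar1 (chr7:16259339-16259588): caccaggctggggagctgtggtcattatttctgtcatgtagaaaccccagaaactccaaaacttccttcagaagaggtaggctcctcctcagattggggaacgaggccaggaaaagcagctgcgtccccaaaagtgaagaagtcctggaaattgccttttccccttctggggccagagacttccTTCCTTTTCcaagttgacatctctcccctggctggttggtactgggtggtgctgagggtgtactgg

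These windows were searched on both strands for 6 motifs, chosen after the counts had been seen. The interferon-stimulated response element core, GAAANNGAA, was found in 1 of the 6 promoters, that of C5ar1, against 7.13% of all 32851 promoter windows of the same length. It lies from 66 to 58 bases before the RefSeq start. The GENCODE M21 model of C5ar1, whose positions are given below, starts farther upstream, at 16259540. Most of this window, with the match, lies inside that model. The gamma-activated site bound by STAT dimers, TTCNNNGAA, was in none of the 6 (7.02% of all windows), and neither was the composite site of PU.1 with an interferon regulatory factor, GGAANNGAA (6.99%). A PU.1 site alone, GAGGAAG, whose letters can overlap those of the composite site, was found in C1qc (10.6% of all windows). It lies 194 to 188 bases before the RefSeq start. The GENCODE M21 model of C1qc starts inside this window, at 136893065, so the match is nearer to that start. The C/EBP motif TTGCNNAA was found in C3, 45 to 38 bases before the start (9.56%), and the AP-1 site TGANTCA in C3ar1, 22 to 16 bases before the start (6.75%). A match describes letters in this window and does not show that a factor binds there. Sites farther away were not searched.

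All 9 genes had fewer scaled reads in the T403A library than in the WT library. Levels are given as CPM, the count brought to a common library total, after TMM scaling, and a gene was counted as lower or higher when it differed by 1.5-fold or more with an exact 95% counting interval that excluded 1. By this rule 8 of the 9 genes were lower, 0 were higher, and C5ar1 was in neither class. For comparison, of the 11199 measured genes, those whose counts summed to 20 or more, 10.8% were lower and 13.5% higher. In number these were 1214 lower and 1515 higher genes, and 890 and 2290 with plain library size scaling. At 2-fold, 6 of 9 were lower, against 6.08% of measured genes. C1qb, at 2.03-fold, was 1.78-fold lower with library size and 1.93-fold with upper-quartile scaling, and the count was then 5. The median log2 ratio of T403A to WT was -1.22 over the 9 genes and 0.01 over all measured genes, a difference of -1.23. All 9 genes passed the count minimum, but Cfb and C4b, with 0 and 5 counts in T403A, reached it through the WT library alone. A gene with so few T403A counts can pass only with a larger WT count, so their lower calls are partly set by that minimum. Of the 7 others 6 were lower, and at 2-fold only C1qa, C1qb, C3 and C3ar1 of these 7 were. Of 2477 genes at 100 CPM or more in either library, a bound set after the values were seen, 19.1% were lower. A gene can enter this group through the library where it is higher, so the share does not separate abundance from change.

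Together the 9 genes took 0.905% of the WT counts (exact 95% interval 0.9003 to 0.910) and 0.453% of the T403A counts (0.450 to 0.456). Their summed level was 9671 CPM against 4239 CPM, 2.28-fold lower in T403A (counting interval 2.26 to 2.30). Intervals throughout cover counting error only and leave out differences between animals, cultures and library preparations. In bulk RNA, fewer cells that transcribe a gene and less of its RNA per cell cannot be told apart.

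**Figure D1:**
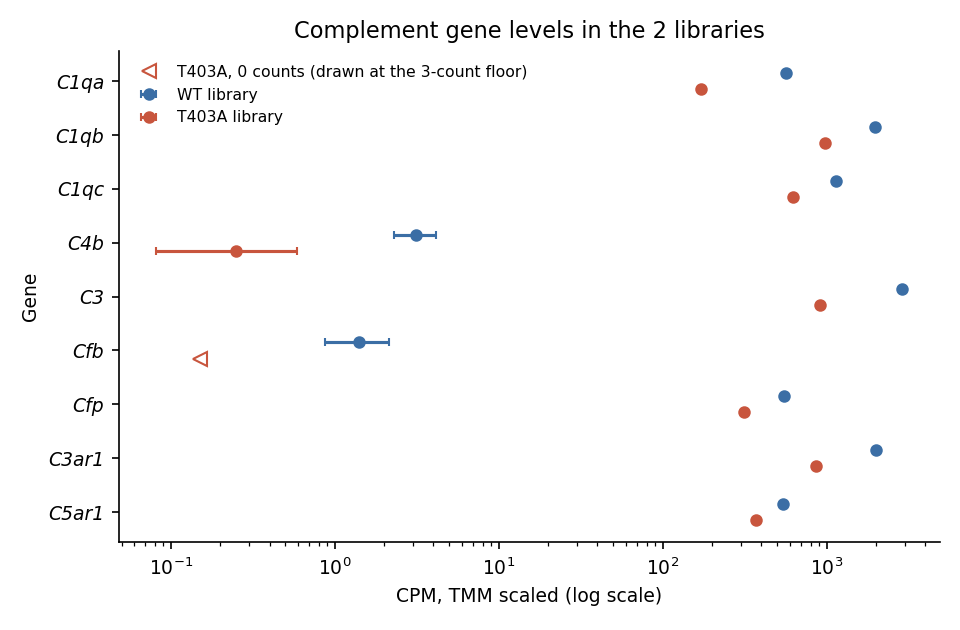
Level of each complement gene in CPM (horizontal log axis) in the WT and T403A libraries, 1 point per library with its exact 95% Poisson counting interval, which is narrower than the point for the 7 abundant genes. In every row the T403A point lies left of the WT point, and Cfb, with 0 counts in T403A, is drawn at the floor of 3 counts (0.150 CPM).

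**Figure D2:**
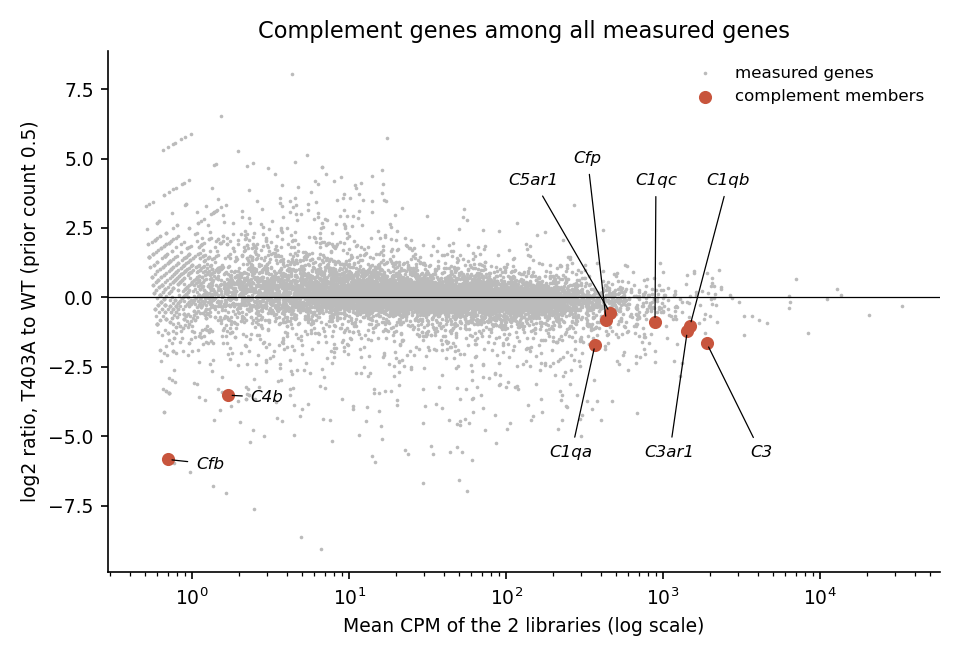
The log2 ratio of T403A to WT against the mean CPM of the libraries (log axis), with each of the 11199 measured genes as a grey point and the 9 complement genes in red. All 9 lie below 0, between -0.55 for C5ar1 and -5.84 for Cfb, whose value depends on the prior count of 0.5 and is not a bound.

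The 3 genes of C1q were abundant and all lower in T403A, but not by the same fold. They lie side by side on chromosome 4 (GRCm38, GENCODE M21) within 18.7 kb, from 136880129 to 136898803, in the order C1qb, C1qc, C1qa and all on the minus strand, with 3.62 kb between C1qb and C1qc and 2.85 kb between C1qc and C1qa. C1qb (ENSMUSG00000036905, 136880129 to 136886187) had 29814 counts in WT and 19534 in T403A. This was 1987 CPM and 979.6 CPM, 2.03-fold lower (counting interval 1.99 to 2.07). C1qc (ENSMUSG00000036896, 136889804 to 136893065) had 17210 and 12525 counts, or 1147 CPM and 628 CPM, 1.83-fold lower (1.78 to 1.87). The intervals of these folds lie close together but do not overlap.

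C1qa (ENSMUSG00000036887, 136895917 to 136898803), the gene of the A chain, differed more. It had 8457 counts in WT and 3442 in T403A, or 564 CPM and 173 CPM, 3.27-fold lower (3.14 to 3.40). The ratio of one gene to another inside a library does not depend on scaling. By that measure C1qa relative to C1qb was 1.61-fold lower in T403A (95% interval from the 4 counts 1.54 to 1.68), and relative to C1qc 1.79-fold lower (1.71 to 1.87). C1qc relative to C1qb was 1.11-fold higher (1.08 to 1.14).

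As shares of the reads of the 3 chains, C1qa took 15.2% in WT (exact 95% interval 14.9 to 15.5) and 9.70% in T403A (9.39 to 10.01). C1qb took 53.7% (53.3 to 54.2) and 55.0% (54.5 to 55.5), and C1qc took 31.0% (30.6 to 31.4) and 35.3% (34.8 to 35.8). The protein holds its chains in equal number, whereas per base of gene length the reads did not stand in equal number in either library. There C1qb made up 61.7% in WT and 64.7% in T403A, C1qc 20.1% and 23.4%, and C1qa 18.3% and 11.9%. The C1qc length used, 1931 bases, exceeds the 1203 bases of its longest protein-coding transcript, and the shorter length would raise its share. For C1qa and C1qb the lengths are equal, at 1040 and 1088 bases. The summed reads of the 3 genes came to 3698 CPM for WT against 1780 CPM, 2.08-fold lower in T403A (2.05 to 2.11).

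**Figure D3:**
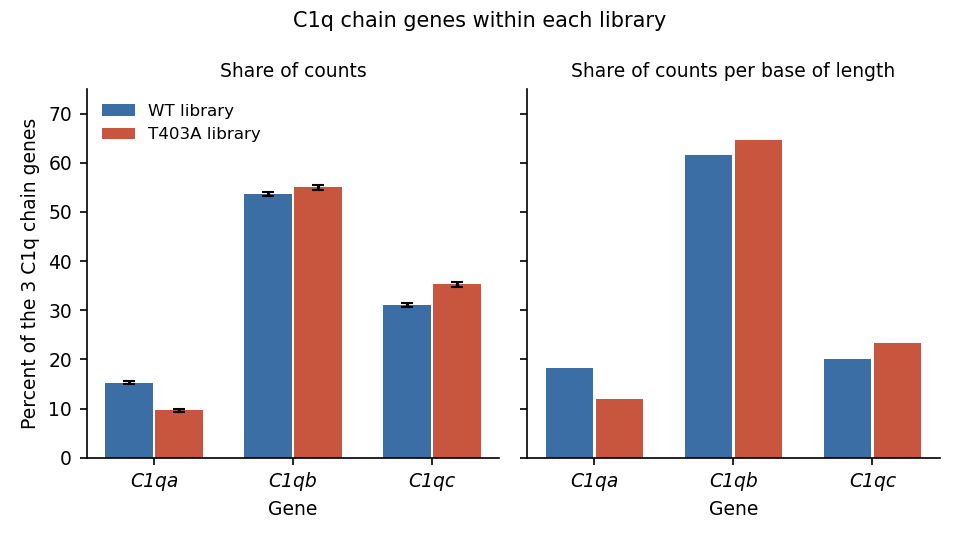
Share of each C1q chain gene in the reads of the 3 genes, in percent, for the WT and T403A libraries, by counts (left, bars with exact 95% binomial intervals) and by counts per base of the deposited gene length (right, no interval drawn). The C1qa bars are lower in T403A in both panels (15.2% and 9.70% of counts), and C1qb is the tallest pair in both.

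Of the components cleaved after C1q, C3 was abundant and C4b was near the limit of detection. C3 (ENSMUSG00000024164, chromosome 17, 57203970 to 57228136, minus strand) had the most counts of the 9 genes, 43147 in WT and 18258 in T403A. Its level of 2876 CPM compares with 916 CPM, 3.14-fold lower (3.09 to 3.20), and its interval overlaps that of C1qa. C4b (ENSMUSG00000073418, chromosome 17, 34728380 to 34743882, minus strand), which encodes complement C4, had 47 counts in WT and 5 in T403A. That was 3.13 CPM (exact Poisson interval 2.30 to 4.17) and 0.251 CPM (0.081 to 0.585), 12.5-fold lower with a wide interval of 4.99 to 40.3. The intervals of the libraries do not overlap.

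C4b has a near-identical copy, C4a, in the same region. Of the 50-base windows of the C4b transcript 35.2% were also in a C4a transcript, as were 16.5% of the 100-base windows. Reads from those stretches cannot be assigned to 1 of the copies, and how they were counted is not known. No gene of the table was matched to the symbol C4a, so no count of C4a was at hand to set beside that of C4b. For the other genes except Cfb, no window of either size occurred in a transcript of another gene.

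Of the alternative-route genes, Cfb was near the limit of detection and Cfp was not. Cfb (ENSMUSG00000090231, chromosome 17, 34856374 to 34862518, minus strand), the gene of factor B, had 21 counts in WT and 0 in T403A. The WT level was 1.40 CPM (0.867 to 2.14). For T403A the count of 0 was set to a floor of 3 counts, 0.150 CPM, while its exact Poisson interval reaches 0.185 CPM. Against that floor of 3 counts, and with the WT count taken as exact, Cfb was at least 9.30-fold lower. With the counting error of the WT library included the exact interval begins at 6.92-fold. A second gene model on the same strand, Gm20547, covers 79.5% of the exon bases of Cfb and had 0 counts in both libraries. Reads in the shared exons may therefore be missing from the Cfb count in both libraries, which was not tested. Cfp (ENSMUSG00000001128, chromosome X, 20925454 to 20931555, minus strand), the gene of properdin, had 8309 counts in WT and 6247 in T403A. It stood at 554 CPM and 313 CPM, 1.77-fold lower (1.71 to 1.83), a fold whose interval overlaps that of C1qc.

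The receptor genes both had a lower value in T403A, and C3ar1 by more than C5ar1. C3ar1 (ENSMUSG00000040552, chromosome 6, 122847138 to 122856161, minus strand), the receptor of the C3 peptide, had 29894 counts in WT and 17108 in T403A. The levels were 1993 CPM and 858 CPM, 2.32-fold lower (2.28 to 2.37). C5ar1 (ENSMUSG00000049130, chromosome 7, 16246743 to 16259540, minus strand), the receptor of the C5 peptide that draws in neutrophils and macrophages, had 8185 and 7408 counts. They correspond to 546 CPM and 371 CPM, 1.47-fold lower (1.42 to 1.52), just inside the 1.5-fold bound, with an interval that excludes 1 and includes the bound. Within the libraries, C3ar1 relative to C5ar1 was 1.58-fold lower in T403A (1.52 to 1.64). C3 relative to its receptor C3ar1 was 1.35-fold lower (1.32 to 1.39).

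Ordered by fold, C4b and Cfb came first, followed by C1qa, C3, C3ar1, C1qb, C1qc, Cfp and C5ar1. Neighbours in this order whose counting intervals overlap were C4b and Cfb, C1qa and C3, and C1qc and Cfp. Among all measured genes, ranked by log2 ratio with the prior count, 3.04% were lower than C1qa and 3.20% than C3. C4b and Cfb, which reached the count minimum through the WT library alone, are given no rank. The value was 4.91% for C3ar1, 6.03% for C1qb, 7.42% for C1qc, 7.89% for Cfp and 12.2% for C5ar1. Dividing by the plain library totals in place of TMM raised every log2 ratio by 0.19. With it the folds ran from 1.29-fold lower for C5ar1 and 1.55-fold for Cfp upwards, and the same 8 genes met the rule under each of the 4 scalings compared.

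**Figure D4:**
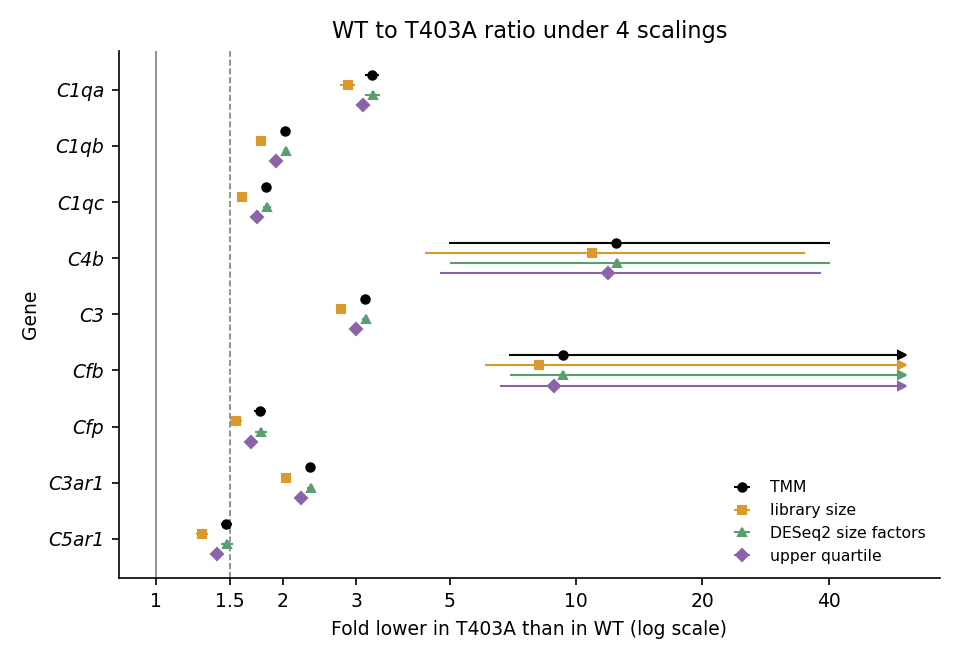
Fold by which each complement gene was lower in T403A than in WT (horizontal log axis), under TMM, plain library size, DESeq2 size factors and upper-quartile scaling, with exact 95% counting intervals. The dashed line marks 1.5-fold, which C5ar1 stays left of at 1.47-fold with TMM, and arrows on the Cfb row mark an interval with no upper end because T403A had 0 counts.

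Levels of different genes were compared as RPKM, the TMM-scaled CPM divided by gene length in kilobases. For C1qc the length of its longest protein-coding transcript would give a higher RPKM. In WT the highest was C1qb at 1827 RPKM, 11th among all genes of the table, followed by C1qc at 594, C3 at 559, C1qa at 542, C3ar1 at 463, Cfp at 319 and C5ar1 at 212. In T403A C1qb was again the highest at 900.4 RPKM, 23rd among all genes, and C1qc followed at 325. Then came C3ar1 at 199, Cfp at 180.5, C3 at 178, C1qa at 166 and C5ar1 at 145, so that C3 and C1qa moved from above C3ar1 to below Cfp. In this order Cfp and C3 in T403A have intervals that overlap, and the other neighbours among the 7 abundant genes do not. C4b was at 0.550 RPKM and Cfb at 0.496 RPKM in WT, with overlapping intervals, and at 0.044 and 0 in T403A.

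The other genes of the pathway included lower and higher ones. Of 53 further complement genes listed by role, 52 were in the table, 20 had 0 counts in both libraries and 18 were measured. Of the 18, 3 were lower, 4 higher and 11 in neither class. Over all measured genes 10.8% were lower and 13.5% higher, and these shares also stand beside the counts per list below. The median log2 ratio of the 18, -0.09, became 0.10 with library size scaling. Among the 3 measured genes of the initiation list, C1ra, the protease that C1q carries, had 262 counts in WT and 126 in T403A. It stood at 17.5 CPM and 6.32 CPM, 2.76-fold lower (2.23 to 3.45). The lectin Colec12 was at 44.3 CPM and 57.1 CPM, and the ficolin gene Fcna at 3.40 CPM and 3.21 CPM, a log2 ratio of -0.09 that was 0.11 with library size scaling. C2, which encodes the partner of C4 in the classical-route enzyme, had 0 and 1 counts, and C1s1, the second C1 protease, 6 and 0.

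Of the 7 terminal genes, which form the membrane pore, C8g was the 1 measured. Its 37 counts against 80 made it 1.63-fold higher in T403A (1.09 to 2.47). Hc, the gene of C5 in mice, had 1 and 0 counts. The cells of both libraries thus held reads of the C5 receptor and almost none of its precursor.

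Regulators that limit complement on cells and in fluid went both ways, with 1 of 5 measured genes lower and 2 higher. Cd55, which speeds the decay of the C3-cleaving enzymes, had 99 counts in WT and 6 in T403A, or 6.60 CPM and 0.301 CPM, 21.9-fold lower (9.73 to 61.2). Cd59a, which blocks the pore, was 1.73-fold higher (1.37 to 2.20) on 103 and 237 counts. Cr1l, the mouse membrane regulator also called Crry, stood at 99.4 CPM and 81.4 CPM, in neither class.

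Among 9 measured genes of other complement receptors and binding proteins, 1 was lower, 1 was higher and 7 were in neither class. Itgam, the alpha chain of complement receptor CR3, had 342 CPM against 168 CPM, 2.04-fold lower (1.95 to 2.13). Its partner chain Itgb2 was at 1372 CPM and 1077 CPM, within 1.5-fold. Lrp1, a large scavenger receptor and the most counted gene of the list, stood at 2056 CPM and 2248 CPM. Vsig4, a macrophage receptor for C3 fragments, had 4 and 16 counts, a 3.01-fold higher value whose interval of 0.971 to 12.4 includes 1. Of genes named after their values were seen, Cd93 was the 1 higher receptor, 1.52-fold (1.47 to 1.56). C5ar2, the second C5 peptide receptor, lies 2.59 kb from C5ar1 and stood at 9.53 CPM and 8.93 CPM.

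**Figure D5:**
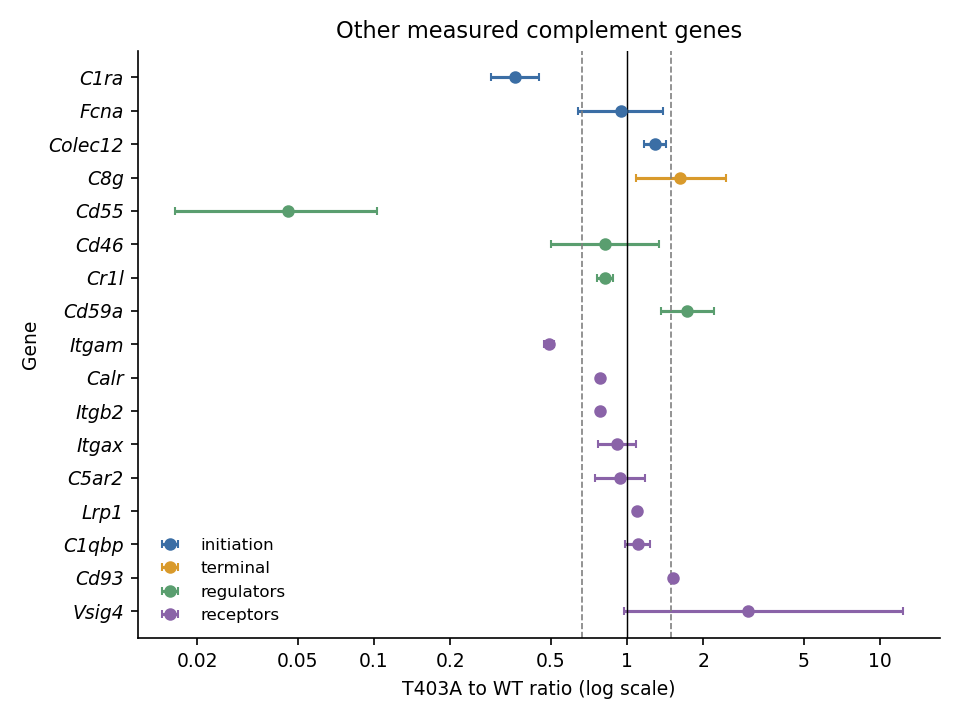
T403A to WT ratio (horizontal log axis) of other measured complement genes, coloured by list, each with its exact 95% counting interval. Dashed lines mark 1.5-fold in either direction: C1ra, Cd55 and Itgam lie left of them, and C8g, Cd59a and Cd93 lie right, as does Vsig4 with an interval that crosses 1.

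The nearest measured gene on each side of each complement gene gave 14 different neighbours outside the set, of which 1 was lower, 2 higher and 11 in neither class. The median log2 ratio of these neighbours was -0.06. The measured genes nearest to the C1q genes were not close to them. Kdm1a, at least 277 kb away, stood at 47.9 CPM and 47.0 CPM. Zbtb40, at least 80.9 kb away, was 1.78-fold higher (1.54 to 2.06). Beside C3, Gpr108 stood at 79.2 CPM and 90.7 CPM and Tnfsf14 was 1.77-fold higher on 26 and 61 counts. Next to C3ar1, Necap1 was 1.56-fold lower (107.99 CPM and 69.0 CPM), while Foxj2 stood at 57.7 CPM and 70.4 CPM.

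The libraries held 16033032 counts for WT and 18658381 for T403A. Stat2 itself had 5641 and 1683 counts, or 376 CPM and 84.4 CPM, 4.46-fold lower in T403A (4.22 to 4.71). This does not check the labels, since a substitution need not change a read count. All 15 genes of an interferon-stimulated reference list were lower, with a median log2 ratio of -3.85. All 25 macrophage markers were measured in both libraries, and 9 were lower, 2 higher and 14 neither. The most counted were Lyz2 at 36620 CPM and 29804 CPM and Ctsb at 11139 CPM and 10826 CPM. Apoe, named after its values were seen, was above Ctsb in WT at 11898 CPM and 2.44-fold lower in T403A at 4875 CPM.

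Most markers of other cells were scarce, and several moved with the complement genes. The summed level of 15 neutrophil markers was 350.3 CPM against 248 CPM, of which Csf3r and Mmp8 had the most counts, with Elane and Ly6g at 0 in both; of the 9 measured 4 were lower and 3 higher. Stromal cells, which also make complement proteins, had 14 markers with a sum of 225 CPM and 430 CPM, mostly Igfbp4, followed by Acta2. Lum was at 0 in both, and of the 7 measured 3 were lower and 1 higher. The sums were 422 CPM and 174 CPM for 11 dendritic cell markers (3 of 5 measured lower, 1 higher) and 117 CPM and 94.2 CPM for 11 lymphocyte markers (Il7r and Cd4, 1 of 3 lower). Of the dendritic cell markers the most counted were Bst2, at 325 CPM and 58.0 CPM, and Tcf4, at 92.7 CPM and 113 CPM. Bst2 is also in the interferon-stimulated list, and without it the sum was 96.7 CPM and 116 CPM, higher in T403A. For lymphocytes Cd3e, Cd3g, Cd8a, Nkg7 and Ncr1 were at 0 in both. The 9 erythroid and megakaryocyte markers summed to 38.7 CPM and 8.17 CPM (Pf4 and Gp1ba, 2 of 4 lower; Hba-a1 at 0 in both). The 7 mast cell and basophil markers summed to 8.40 CPM and 2.56 CPM (Ccr3, lower, and Kit, higher; Fcer1a at 0 in both). The part of these cells in the complement values was not tested. For C4b and Cfb, at 3.13 CPM and 1.40 CPM in WT, the marker sums exceed the genes' own level. In WT no sum of these other-cell markers reached the level of any abundant complement gene. In T403A the stromal sum was above C1qa at 173 CPM, Cfp at 313 CPM and C5ar1 at 371 CPM. The neutrophil and dendritic cell sums in T403A were also above C1qa, the latter barely.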

How the data were processed

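RNA was sequenced from 1 WT and 1 T403A library. The table deposited by the authors holds raw whole-number read counts per Ensembl gene and, in bases, another column with the gene length, per the file headers. Tools listed in the submitters' processing notes are HTSeq 0.9.1, HISAT2, cutadapt 1.15 and DESeq 1.30.0, with build GRCm38. Roles, annotation release, strand setting and read length are not given there. Columns were matched to samples by title. Symbols were found for 21969 of 22060 genes, and positions come from GENCODE M21 on the same build, whose exon lengths equal the deposited lengths for all 9 genes.

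Counts were scaled with TMM (edgeR 4.0.16, R 4.3.3) over the whole table. The ratio carries an exact 95% Clopper-Pearson interval (scipy 1.17.1), ratios between genes a normal interval on the log scale, and log2 ratios a prior count of 0.5. A count of 0 was set to a floor of 3 counts per library. The scoring was tested on simulated libraries with counting error only and library size scaling, which do not cover differences between animals or cultures. Named genes outside the set are, for each complement list, 2 of largest ratio and 2 of highest summed count, for each cell type list, 2 of highest summed count, and the nearest neighbours; a few others are given as illustration. With 2 libraries no likeness of pattern was computed. The genes and lists were chosen with earlier results of these data known. Alternatives were library size, DESeq2 1.42.0 size factors, upper-quartile scaling, count minimums of 0 and 100, and 2-fold. A few results on single genes are not reported here, though their genes stay in the counts.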

Additional observations from a re-analysis of the deposited data

How the results depend on the processing

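Under library size, DESeq2 size factors and upper-quartile scaling, all 27 log2 ratios of the 9 complement genes stayed below 0 and all 27 calls at 1.5-fold were as with TMM. At 2-fold, 6 genes were lower with TMM or DESeq2 size factors and 5 with library size or upper-quartile scaling, which place C1qb under 2-fold, alternatives chosen after seeing the data. The median log2 ratio of the genes, -1.22 with TMM, was -1.02 with library size, -1.15 with upper-quartile scaling and -1.02 over the 7 genes whose counts summed to 100 or more, where fewer genes entered. Library size scaling changed the split over all measured genes from 1214 lower and 1515 higher to 890 lower and 2290 higher. Of the other complement genes, 4 were higher with TMM, 5 with library size or upper-quartile scaling (Vsig4 added) and 0 at 2-fold. C1q chain shares per base of length differ from those by counts by construction: in WT they were 18.3% for C1qa, 61.7% for C1qb and 20.1% for C1qc, and in T403A 11.9%, 64.7% and 23.4%. No paired analysis was possible because each group has 1 library. For the same reason no library could be left out. Depth limits C4b and Cfb, which rest on 52 and 21 counts in all.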
